A study of Mus musculus with 17 samples.

Results

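The renin-angiotensin system was followed through its 9 member genes, Agt, Ren1, Ace, Agtr1a, Agtr1b, Agtr2, Mme, Enpep and Atp6ap2, which were taken by name from the 35971 genes measured in 17 mouse kidneys. Of the 9 members, 7 had enough reads to be tested. The 2 that did not were Agtr1b and Agtr2, with at most 12 reads in any kidney. Every mouse carried the lsl-PRCC-TFE3 KI allele, in which a stop cassette flanked by loxP sites keeps the PRCC-TFE3 fusion gene of translocation renal cell carcinoma silent until Cre recombinase removes it. KSP-Cre, driven by the promoter of kidney-specific cadherin, acts in kidney tubule epithelium, so that cells outside that lineage, including the renin-producing cells of the arteriole wall, are not its known target. The 5 groups were 4 KSP-Cre(-) kidneys (Cre(-)), 3 KSP-Cre(+) kidneys (PRCC-TFE3 KI), 4 KSP-Cre(+) kidneys with HIF1a f/f (Hif1α KO), 3 with HIF2a f/f (Hif2α KO) and 3 with HIF1a f/f and HIF2a f/f (DKO). Replicates 1 and 2 of the Cre(-) group carried HIF1a f/f and the remaining Cre(-) mice carried no floxed Hif allele. The labels give neither sex nor age, and nothing in them ties a library to a litter. The library numbers largely follow the groups, so an effect of library order cannot be separated from one of group.

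Angiotensinogen, the product of Agt, is the only known precursor of angiotensin I, which renin cuts from its amino-terminal end. Angiotensin-converting enzyme (Ace) removes the last residues to give angiotensin II, which raises blood pressure and sodium retention mainly through the AT1 receptor (Agtr1a and Agtr1b in the mouse), while the AT2 receptor (Agtr2) often opposes it. Neprilysin (Mme) and aminopeptidase A (Enpep) shorten angiotensins further, and the (pro)renin receptor (Atp6ap2) is also an accessory subunit of the vacuolar proton pump. In the healthy kidney, renin comes from juxtaglomerular cells, while Ace, Mme, Enpep and Agtr1a are all found in the proximal tubule among other sites.

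The stretch of Agt that encodes angiotensin I is shown because it is the substrate around which the pathway is built. It covers codons 30 to 39 of the longest open reading frame of transcript Agt-201, in exon 2 of 5 (GRCm38, chr8:124564450-124564479, minus strand), and the capitals mark the 8 codons of angiotensin II.
Agt, angiotensin I codons: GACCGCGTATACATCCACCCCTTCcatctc
The 250 bases before the RefSeq start of the member that rose and of the members that fell most are shown next, 5′ to 3′ on the gene's strand (RefSeq, GRCm38.p6), with any TATAAA on that strand, ACGTG or GCGTG in capitals. They lie at chr8:124569707-124569956 (minus strand) for Agt, at chr1:133350424-133350673 (plus strand) for Ren1 and at chr11:105967698-105967947 (plus strand) for the somatic start of Ace.
Agt: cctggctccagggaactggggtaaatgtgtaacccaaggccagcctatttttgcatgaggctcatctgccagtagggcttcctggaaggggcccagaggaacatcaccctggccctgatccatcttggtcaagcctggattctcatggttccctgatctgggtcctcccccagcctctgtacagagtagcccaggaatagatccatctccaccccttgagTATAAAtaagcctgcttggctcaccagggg
Ren1: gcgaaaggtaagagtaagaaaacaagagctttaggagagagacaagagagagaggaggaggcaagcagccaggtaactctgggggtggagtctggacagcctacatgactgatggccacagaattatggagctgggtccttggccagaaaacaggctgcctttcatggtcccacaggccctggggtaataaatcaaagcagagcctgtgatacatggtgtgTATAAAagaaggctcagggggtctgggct
Ace, somatic start: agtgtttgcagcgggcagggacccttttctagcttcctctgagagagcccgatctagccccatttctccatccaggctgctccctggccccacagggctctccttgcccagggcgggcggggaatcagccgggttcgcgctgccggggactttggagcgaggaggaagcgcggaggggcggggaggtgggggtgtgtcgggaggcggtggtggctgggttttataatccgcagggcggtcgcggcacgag
Agt and Ren1, which moved in opposite directions, both held TATAAA, beginning 30 and 29 bases before the start, a motif found in 7.59% of 32851 RefSeq promoters, and among the other members only Agtr1b held it (31 bases before the start). RefSeq held 11 promoters for 8 of the 9 members (none for Agtr1a). None of the 11 held TCACGTGA or TCATGTGA, forms of the M-box that TFE3-family factors can bind, on either strand. Those letters stand in 0.785% and 0.846% of all promoters, and CACGTG, which TCACGTGA contains, stands in 6.02%. The core of the hypoxia response element was searched on both strands as ACGTG (16.6% of all promoters) and GCGTG (28.2%), of which CACGTG contains the former. ACGTG was found only in Atp6ap2, 86 bases before the start on the reverse strand, and GCGTG only in 1 of 3 Mme promoters, 28 bases before its start.

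The 17 libraries held 16504419 to 24668827 expected counts each (median 18635282), and 3 counts, taken as the lowest detectable amount, equalled 0.122 to 0.182 CPM. Values are CPM, counts scaled to a common library size with TMM factors, summarised as mean ± SD, and floors cover counting error only. Differences are log2 fold changes with their SE from edgeR's quasi-likelihood test over 16995 genes, with Benjamini-Hochberg adjusted p and a threshold of 0.05, and their intervals are at the 95% level. The whole-gene level of Hif1a was 162.4 to 198.3 CPM in Hif1α KO kidneys and 183.9 to 231.5 CPM in KI kidneys, and that of Epas1, which encodes HIF2α, was 136.4 to 149.2 CPM in Hif2α KO kidneys and 173.1 to 191.5 CPM in KI kidneys. These sums include exons outside the floxed part and cells without Cre, so they do not check the deletion. All 17 libraries held at most 0.202 CPM of Ddx3y and 0.101 CPM of Eif2s3y, both Y-linked. Xist was not analysed here. Kdm5d, a Y-linked gene with an X-linked copy, Kdm5c, that can share its reads, was nevertheless counted at 17.6 ± 1.35 CPM (SD, n = 4) with no Cre and at the lower level of 9.69 ± 1.84 (n = 3) in KI. Uty was not called between KI and Cre(-) kidneys, and it was called lower in Hif2α KO against Cre(-) kidneys. KI replicate 2 stood apart with a summed level of 5 adipocyte markers of 2033 CPM, against 56.6 to 399.8 CPM in the other 16 libraries.

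On the length-scaled TPM scale, which allows levels of different genes to be compared, Ace was the highest member in Cre(-) kidneys at 89.4 ± 6.12 TPM (SD, n = 4). Mme at 81.0 ± 12.4 and Ren1 at 79.0 ± 16.4 TPM were close behind, and the 3 did not differ beyond their spread. Atp6ap2 (52.6 ± 9.39) and Enpep (48.0 ± 6.33) overlapped each other, as did Agt (29.7 ± 1.67) and Agtr1a (22.4 ± 4.85). In KI kidneys the order was changed, with Agt highest at 886.0 ± 27.4 TPM (n = 3), rank 126 of all genes against rank 3760 in Cre(-) kidneys. Atp6ap2 (77.3 ± 3.90) and Enpep (52.6 ± 8.69) then lay above Mme (15.8 ± 7.33), Ace (9.06 ± 1.31), Ren1 (7.19 ± 3.10) and Agtr1a (3.96 ± 0.938), of which Ace and Ren1 overlapped. Ren1 moved from rank 1428 to rank 10236 and Ace from rank 1267 to rank 9500.

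**Figure D1:**
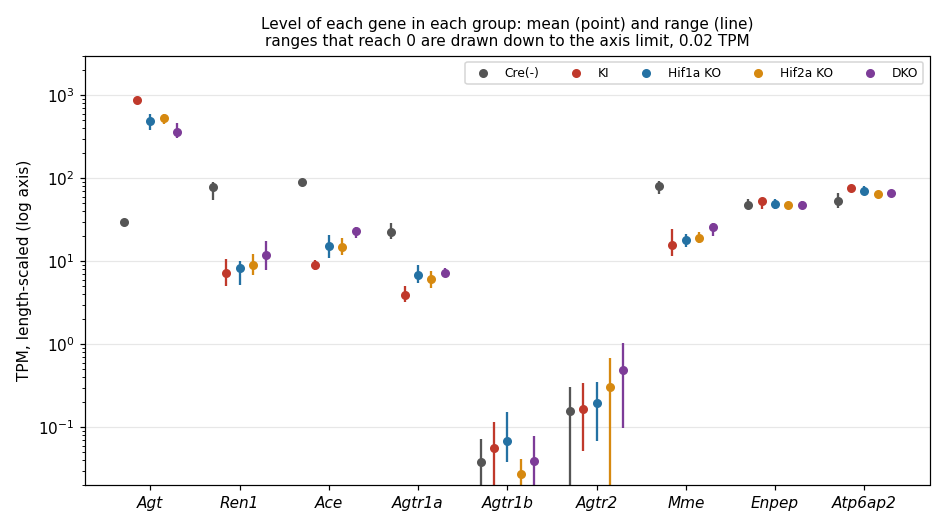
Length-scaled level (TPM, log axis) of the 9 genes in each of the 5 groups, with the mean as a point and the range over libraries as a line (n = 4, 3, 4, 3 and 3 libraries). Agt lies at 29.7 TPM in Cre(-) kidneys and at 306.3 TPM or more in every kidney with Cre, while Agtr1b and Agtr2 stay at 1.03 TPM or lower in every library, with ranges that reach 0 cut at 0.02 TPM.

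The comparison of KI with Cre(-) kidneys asks how the system differs where Cre has switched the fusion gene on. No group had Cre without the fusion. The paper reports tumours in KI kidneys, with less tumour development in the Hif1α KO and DKO groups and no such reduction in the Hif2α KO group. The tumour content of these libraries was not measured, and its part cannot be told apart from that of group. Of the 7 members tested, 6 were called, with Agt higher and Ren1, Ace, Agtr1a, Mme and Enpep lower. Among all genes 61% were called, 31.7% higher and 29.3% lower, so that a call in itself sets no member apart. Of all called genes 51.9% were higher, and 78.2% were with limma on log2(TPM + 1), a scaling that raised the median of all genes from 0.03 to 0.38. The members' median log2 fold change was -2.91 beside that of 0.03. Enpep had the smallest change of the 6, and its call was lost when TPM was used. In bulk tissue a lower level can come from fewer cells of a type or from less RNA per cell, and these cannot be told apart here.

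Agt (ENSMUSG00000031980.9, GRCm38 chr8:124556534-124569706) had 55.0, 46.5, 47.3 and 48.4 CPM in the 4 Cre(-) kidneys. In the KI kidneys it had 1063, 1001 and 1127 CPM. The groups lay far apart, and every KI value was over 1000 CPM. The fitted log2 fold change was 4.43 ± 0.17 (SE), 21.6-fold, with an adjusted p of 4.91e-11. Without KI replicate 2, the library rich in adipocyte RNA, it was 4.48 ± 0.18 (adjusted p = 4.69e-10). Fat tissue is itself a known source of angiotensinogen, and its part in the level of Agt in the other libraries was not tested.

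Ren1 (ENSMUSG00000070645.5, chr1:133350510-133360325), the renin gene, had 124.8, 110.1, 74.8 and 118.1 CPM in the Cre(-) kidneys. In the KI kidneys it had 4.65, 8.34 and 5.42 CPM, from 81 to 155 reads in a library. The lowest Cre(-) kidney held more Ren1 than any kidney with Cre. The log2 fold change was -4.12 ± 0.31, a 17.4-fold lower level (adjusted p = 2.83e-08). Some mouse strains carry a duplicated renin gene, Ren2, that was not analysed here, and in mice that carry it reads of that copy could count towards Ren1.

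Ace (ENSMUSG00000020681.14, chr11:105967945-105989964) had 340.0, 282.8, 360.8 and 298.7 CPM in the Cre(-) kidneys. In the KI kidneys it had 26.1, 20.1 and 25.6 CPM. The KI values were close together and far below every Cre(-) value. The log2 fold change was -3.74 ± 0.23, 13.4-fold lower (adjusted p = 5.34e-09). Ace has a second start inside the gene, known for the testis form (transcript Ace-202), to which RSEM assigned 5.68% to 26.1% of the TPM of Ace in Cre(-) kidneys and 4.11% to 18.0% in KI kidneys. Since 91.6% of the 75-base windows of Ace-202 also occur in the somatic transcript Ace-201, that split is uncertain.

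Agtr1a (ENSMUSG00000049115.15, chr13:30336441-30382867), the main AT1 receptor gene of the mouse kidney, had 43.8, 49.4, 35.9 and 34.6 CPM in the Cre(-) kidneys. In the KI kidneys it had 5.97, 4.36 and 5.47 CPM. All KI kidneys lay well below all Cre(-) kidneys. The log2 fold change was -2.96 ± 0.23, 7.77-fold lower (adjusted p = 4.53e-08). Agtr1b, the other AT1 gene, had 0 to 3 reads in each of the 17 libraries and Agtr2 had 0 to 12, with the 12 in Hif2α KO replicate 1, so that no difference was detectable for either at this depth. Agtr1a and Agtr1b share 90.8% of their coding bases (1080 each) but no 75-base window, the read length, so whole reads match only one of them exactly.

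Mme (ENSMUSG00000027820.12, chr3:63241537-63386030), neprilysin, had 429.3, 439.1, 442.4 and 361.5 CPM in the Cre(-) kidneys. In the KI kidneys it had 85.0, 39.4 and 42.6 CPM. KI replicate 1 stood above the other KI kidneys but still far below the Cre(-) group. The log2 fold change was -2.91 ± 0.27, 7.51-fold lower (adjusted p = 2.09e-07).

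Enpep (ENSMUSG00000028024.14, chr3:129269175-129332720), aminopeptidase A, had 148.3, 175.1, 148.5 and 153.9 CPM in the Cre(-) kidneys. In the KI kidneys it had 128.6, 128.3 and 110.9 CPM. The groups did not overlap but the gap was small. The log2 fold change was -0.35 ± 0.09, 1.28-fold lower (adjusted p = 0.00398), and with limma on log2(TPM + 1) it was 0.12 and not called (adjusted p = 0.403), where all genes had a median of 0.38. Atp6ap2 (ENSMUSG00000031007.2, chrX:12587801-12617049), the (pro)renin receptor, had 112.4, 125.4, 98.4 and 93.7 CPM in Cre(-) mice. In KI mice it had 105.1, 111.8 and 128.0 CPM. These ranges overlapped. Its log2 fold change was 0.10 ± 0.10 (adjusted p = 0.409), with an interval from -0.11 to 0.31, while limma on log2(TPM + 1) called it higher by 0.56 where all genes had that median of 0.38, and the pairs of Cre(-) mice gave different values. Against Cre(-) replicates 1 and 2 alone it was -0.04 (adjusted p = 0.726), and against replicates 3 and 4 alone it was 0.26 and called (adjusted p = 0.0281).

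**Figure D2:**
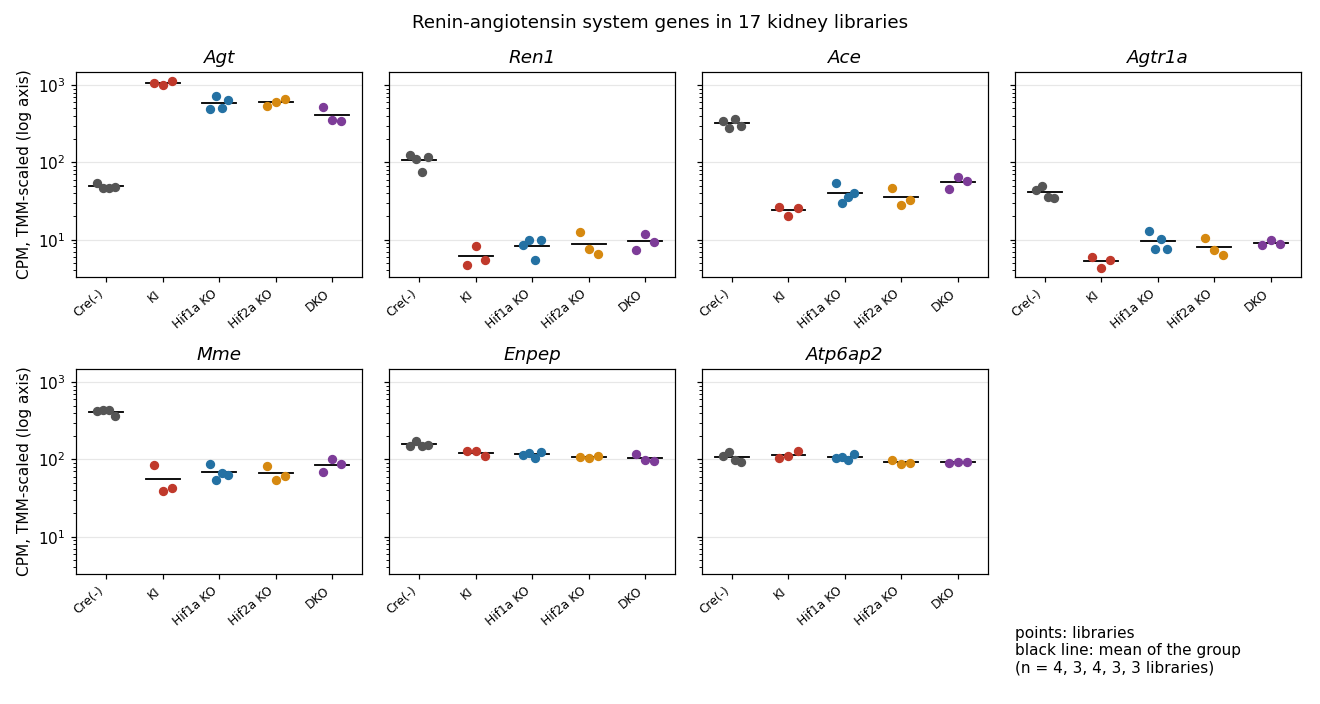
CPM on TMM-scaled library sizes (log axis) of the 7 tested genes, with 1 point per library and a black line at the mean of each group (n = 4, 3, 4, 3 and 3). Agt lies at 46.5 to 55.0 CPM in Cre(-) kidneys and at 1001 CPM or more in KI kidneys, while Ren1, Ace, Agtr1a and Mme lie far lower in all groups with Cre, and Enpep and Atp6ap2 change little.

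The Hif1α KO group asks whether the members' levels differ where that factor was also targeted. Against KI kidneys, 2 of 7 members were called, where 5.44% of all genes were. Agt was lower and Agtr1a was higher. Agt had 490.9, 717.6, 500.4 and 651.2 CPM in the Hif1α KO kidneys, all below the lowest KI kidney, a log2 fold change of -0.85 ± 0.15 (adjusted p = 0.00888). It stayed past the threshold whichever library was left out (adjusted p from 0.00407 to 0.0363). Agtr1a had 13.1, 7.58, 10.3 and 7.49 CPM, all above the highest KI kidney, a log2 fold change of 0.86 ± 0.22 (adjusted p = 0.0343). That call was lost, at 0.0544 to 0.121, without any single KI library and without Hif1α KO replicate 1 or 3, and with limma on log2(TPM + 1), at 0.0796. The share of all genes in Hif1α KO kidneys that lay outside the KI range was not counted, so such a position sets no member apart.

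Ace had 54.2, 29.5, 35.5 and 40.6 CPM in the Hif1α KO kidneys, also above every KI kidney. Its log2 fold change of 0.74 ± 0.21 lay just outside the threshold with edgeR (adjusted p = 0.0513) and inside it with DESeq2 (adjusted p = 0.00909). Ren1, at 8.42, 9.81, 5.38 and 9.95 CPM, overlapped the KI kidneys (log2 fold change 0.45 ± 0.29, adjusted p = 0.392). Mme, at 88.1, 54.3, 67.6 and 63.8 CPM, overlapped them too, with an interval of its log2 fold change from -0.22 to 0.81. Enpep (105.6 to 126.3 CPM) and Atp6ap2 (99.1 to 118.0 CPM) differed from KI by -0.06 ± 0.09 and -0.10 ± 0.10 on the log2 scale, and neither was called.

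Against KI kidneys the Hif2α KO group had 1 of 7 members called, where 1.39% of all genes were. This was Agt, with 537.3, 614.2 and 665.8 CPM, below every KI kidney, and a log2 fold change of -0.81 ± 0.17 (adjusted p = 0.031). The call was lost, at 0.0572 to 0.144, without KI replicate 2 or 3 or any single Hif2α KO library, and in a fit of only the groups compared (0.108). Ace had 47.4, 28.5 and 32.6 CPM and Agtr1a had 10.4, 7.26 and 6.37 CPM, each above the KI range but not called (adjusted p = 0.16 and 0.172). Ren1, at 12.5, 7.61 and 6.47 CPM, and Mme, at 82.5, 54.6 and 62.0 CPM, overlapped the KI range. Enpep had 106.8, 105.4 and 110.1 CPM and Atp6ap2 had 97.8, 88.2 and 90.5 CPM, both just below the KI range and not called (adjusted p = 0.309 and 0.121). How many of all genes lay outside the KI range in Hif2α KO kidneys was not counted, so such a position sets no member apart.

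In DKO kidneys 3 of 7 members were called against KI, where 12.7% of all genes were. Agt had 523.7, 355.5 and 346.4 CPM, a log2 fold change of -1.38 ± 0.17 or 2.60-fold lower (adjusted p = 0.000895). Ace rose to 45.0, 64.5 and 57.4 CPM, by 1.22 ± 0.22 (adjusted p = 0.0045). Agtr1a rose to 8.57, 9.79 and 8.68 CPM, by 0.77 ± 0.23 (adjusted p = 0.0402). None of the DKO kidneys overlapped the KI kidneys for these genes, nor for Atp6ap2, which was not called. The share of all genes without such overlap was not counted. The Agtr1a call was lost, at 0.0592 to 0.132, without KI replicate 2 or 3 or any single DKO library, and with limma on log2(TPM + 1) with no filter (0.0669).

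Of the members not called in DKO kidneys, Ren1 had 7.35, 11.7 and 9.46 CPM (log2 fold change 0.62 ± 0.30, adjusted p = 0.188) and overlapped the KI range. Mme had 68.5, 101.0 and 88.7 CPM (0.63 ± 0.26, adjusted p = 0.118), and without KI replicate 1, the KI kidney highest in Mme, it was called (1.07, adjusted p = 0.007). Enpep had 118.9, 98.7 and 96.0 CPM (-0.23 ± 0.10, adjusted p = 0.135) and was called without DKO replicate 1 (adjusted p = 0.0451). Atp6ap2 had 90.7, 93.3 and 92.2 CPM (-0.32 ± 0.10, adjusted p = 0.0564), all below the KI range, and was called by DESeq2 (0.0265) and without Cre(-) replicate 2 or 4 or KI replicate 1 (0.0358 to 0.0443).

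**Figure D3:**
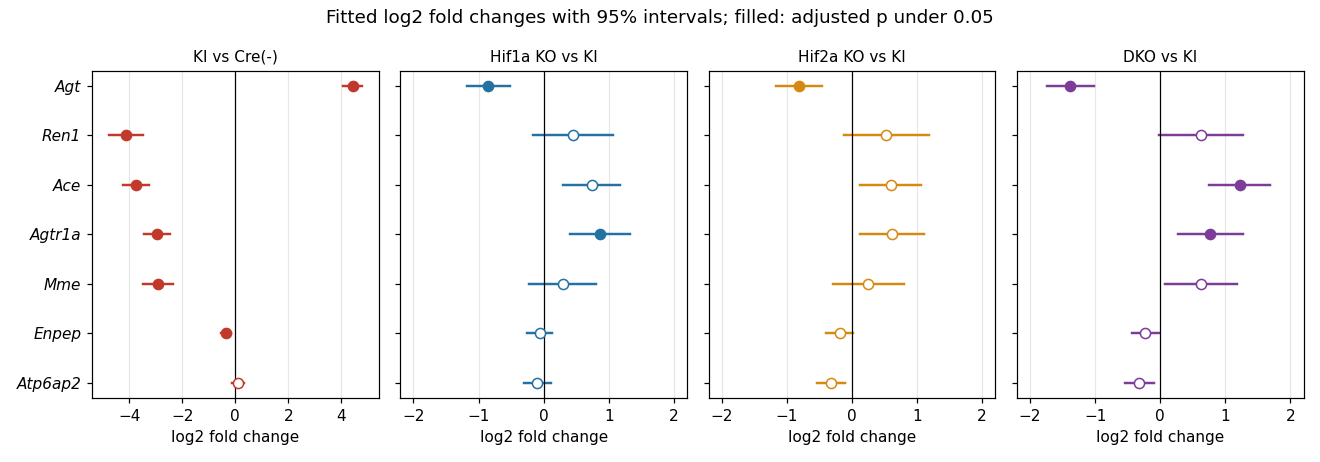
Log2 fold change of the 7 tested genes (points) with lines for the 95% interval, for KI against Cre(-) and for each knockout group against KI. Points are filled where the adjusted p passed the threshold. The first panel has a wider axis than the others. Agt lies at 4.43 in the first panel and at -0.85, -0.81 and -1.38 in the others, and Ren1 is filled in the first alone.

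The single losses were compared directly, since a call in one and not in the other does not show that they differ. Neither edgeR (0 of 7) nor DESeq2 (0) called a member between Hif1α KO and Hif2α KO kidneys, where edgeR called 0.43% and DESeq2 3.17% of all genes. At an unadjusted p under 0.05 only Atp6ap2 passed, with either tool (0.22 ± 0.10, adjusted p = 0.3). Of all 16995 genes 2542 did so with edgeR and 2618 with DESeq2. Agt differed by -0.04 with an interval from -0.37 to 0.29, and Ren1 by -0.08 with an interval from -0.66 to 0.51. Ace differed by 0.14 (-0.29 to 0.57) and Agtr1a by 0.25 (-0.19 to 0.70).

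Whether loss of Hif1α had another effect where Hif2α was also lost was tested as an interaction. No member was called (0 of 7) with edgeR or DESeq2, and edgeR called 0% of all genes, 1013 of them at an unadjusted p under 0.05, while DESeq2 called 31 (0.182%). At an unadjusted p under 0.05, Agtr1a alone passed with either tool, with an interaction of -0.70 ± 0.31 (adjusted p = 0.827). For Agt the interaction was 0.28 ± 0.23, with an interval from -0.20 to 0.76. DKO kidneys were not tested directly against the single knockouts, and for Agt the range of the DKO kidneys (346.4 to 523.7 CPM) overlapped that of the Hif1α KO kidneys (490.9 to 717.6 CPM) but not that of the Hif2α KO kidneys (537.3 to 665.8 CPM).

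In none of the knockout groups did Agt, Ren1, Ace, Agtr1a, Mme or Enpep overlap the Cre(-) range in CPM. The share of all genes that likewise did not overlap was not counted, so this does not set the members apart. Against Cre(-), 6 of 7 members were called in each of the Hif1α KO, Hif2α KO and DKO groups, with Agt higher and Ren1, Ace, Agtr1a, Mme and Enpep lower, where 62%, 61.9% and 58.3% of all genes were called. These comparisons share the Cre(-) kidneys with each other and with that of KI, and so are not independent. Agt stayed higher by 3.58 ± 0.16, 3.62 ± 0.16 and 3.05 ± 0.16 on the log2 scale in Hif1α KO, Hif2α KO and DKO kidneys. Ren1 stayed lower by a log2 fold change of -3.67 ± 0.26, -3.59 ± 0.29 and -3.49 ± 0.29. For Ace the values were -3.01 ± 0.20, -3.15 ± 0.22 and -2.53 ± 0.22. For Enpep they were -0.41 ± 0.09, -0.54 ± 0.09 and -0.58 ± 0.09, and with limma on log2(TPM + 1) they were 0.03, -0.02 and -0.02, with no call. Atp6ap2 was not called by edgeR, and DESeq2 called it lower in Hif2α KO and DKO kidneys (-0.23 in both, adjusted p = 0.0429 and 0.0428), which makes 7 of 7 members where DESeq2 called 62.2% and 58.5% of all genes. With limma on log2(TPM + 1) Atp6ap2 was instead called higher in both (0.30 and 0.33, adjusted p = 0.0214 and 0.0131). All genes there had medians of 0.427 and 0.455, so its direction depends on the scale.

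Beyond the members, 36 genes of the wider pathway were followed in 4 lists, and 31 of them had enough reads to be tested. In KI against Cre(-) kidneys 19 of the 31 were called, 7 higher and 12 lower, or 61.3%, close to the 61% of all genes. Their median log2 fold change was -0.11, beside 0.03 over all genes.

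Among 10 tested genes of the other angiotensin enzymes and receptors, 3 rose and 2 fell. Klk1, tissue kallikrein, which makes kinins, had 2038 to 2739 CPM in Cre(-) kidneys and 121.2 to 303.1 CPM in KI kidneys (log2 fold change -3.76 ± 0.57, adjusted p = 3.4e-05). Anpep, aminopeptidase N, was not called, and KI replicate 1 held 398.3 CPM of it while the other KI kidneys held 117.9 and 119.7 CPM. Of the 5 genes of that list that were not tested, Ctsg and Mrgprd had no read in any library, and the mast cell proteases Cma1, Mcpt4 and Cpa3 had at most 8 reads in a library.

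In the list of renin cell and macula densa genes 3 rose, 2 fell and 3 were not called. Nos1, neuronal nitric oxide synthase, a known marker of the macula densa, had 3.66 to 5.48 CPM in Cre(-) kidneys and 78.2, 142.1 and 144.1 CPM with the fusion (log2 fold change 4.78 ± 0.64, adjusted p = 1.03e-05). Adrb1, the β1-adrenergic receptor through which renal nerves release renin, fell by 1.87 on the log2 scale (adjusted p = 0.000284), from 4.06 to 1.11 CPM. Gja4 was lower by -0.46 ± 0.14, and Rgs5 rose by 0.57 ± 0.12. The Gja4 call was lost in 5 of 10 other settings, among them limma on log2(TPM + 1), and its direction reversed in 3. Akr1b7 and Gja5 were not called (log2 fold changes 0.58 ± 0.40 and 0.37 ± 0.24). Ptgs2, cyclooxygenase-2, had 0.955 CPM in Cre(-) and 1.08 CPM in KI kidneys on average and was not called.

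Of 8 aldosterone response genes 6 fell and none rose, or 75% called beside the 61% of all genes. With limma on log2(TPM + 1) 4 fell and 1, Tsc22d3, rose, where 66.5% of all genes were called. Hsd11b2, which protects the mineralocorticoid receptor from cortisol-like steroids, fell by 2.34 on the log2 scale (adjusted p = 3.95e-05). The 3 subunit genes of the epithelial sodium channel, Scnn1a, Scnn1b and Scnn1g, were lower by -1.11 ± 0.22, -1.24 ± 0.27 and -1.36 ± 0.27. Of the 5 receptor partners 2 fell, with Mtus1 at -1.21 ± 0.11, and 1 rose.

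**Figure D4:**
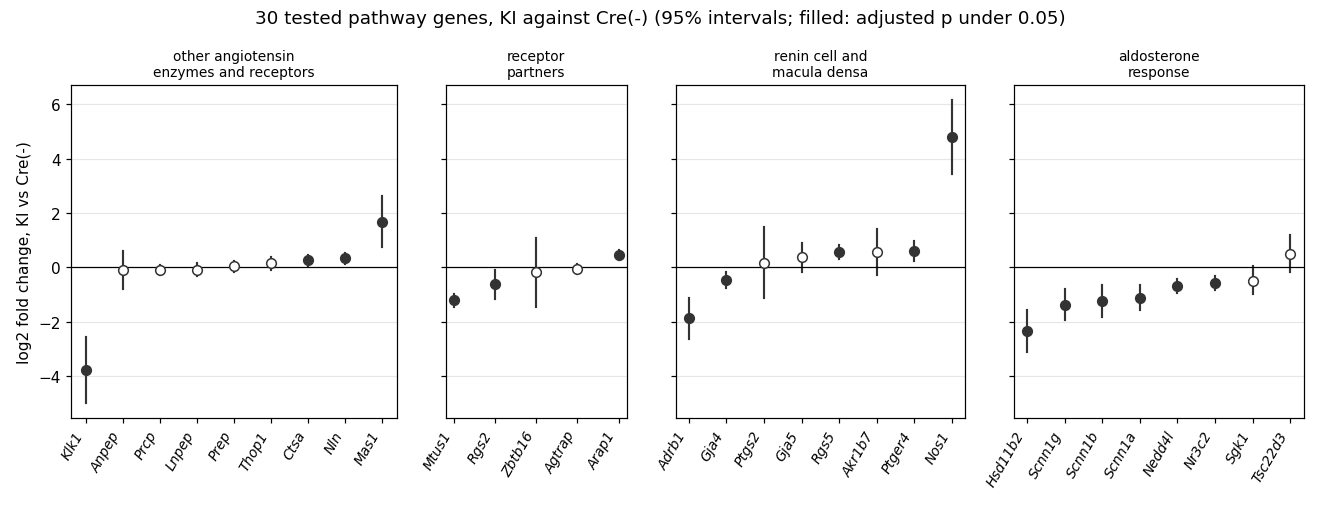
Log2 fold change between KI and Cre(-) kidneys of 30 of the 31 tested pathway genes (points) with lines for the 95% interval, in 4 lists. Filled points passed the threshold. Nos1 lies at 4.78 and Klk1 at -3.76, 6 of 8 aldosterone response genes are filled below 0, and most other genes lie near 0.

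The knockout groups were also compared with KI for these genes. EdgeR called 1 of 31 in Hif1α KO kidneys, where it called 5.44% of all genes (Nr3c2, the mineralocorticoid receptor, -0.47 ± 0.12, adjusted p = 0.0335), and DESeq2 called 5, where it called 9.81% of all genes. The Nr3c2 call was lost, at 0.0648 to 0.0889, without any single KI library or Hif1α KO replicate 1. It was also lost in 6 of 8 other settings, at 0.0506 to 0.371, among them all limma fits and the replicate block. In Hif2α KO kidneys edgeR called 0 of 31 (1.39% of all genes) and DESeq2 called 2 (5.97% of all genes). At an unadjusted p under 0.05 edgeR had 8 of the 31, beside 3260 of all 16995 genes. In DKO kidneys edgeR called 4 (12.9%), close to the 12.7% of all genes. Nos1 fell by 2.82 on the log2 scale (adjusted p = 0.0112) to 36.1, 9.37 and 6.11 CPM, while Scnn1g rose by 1.04 ± 0.28, Ptger4 by 0.71 ± 0.18 and Gja4 by 0.50 ± 0.15. Each of the 4 lost its call in some fit with a library left out. Without DKO replicate 2 none of the 31 was called, where edgeR called 4.19% of all genes. Without KI replicate 1 there were 8, where it called 13.3% of all genes. Nos1 was not particular to DKO kidneys. With edgeR it had an unadjusted p under 0.05 in both Hif1α KO and Hif2α KO kidneys against KI. DESeq2 and limma on log2(TPM + 1) called it in Hif1α KO kidneys. Between Hif1α KO and Hif2α KO kidneys 1 gene was called, Tsc22d3, a glucocorticoid-induced gene (225.8 ± 30.9 CPM, n = 4, against 71.6 ± 16.1, n = 3, adjusted p = 0.0437). EdgeR called 0.43% of all genes there. The Tsc22d3 call was lost with the replicate block (adjusted p = 0.116), with limma on log2(TPM + 1) (0.0627) and in 12 of 17 fits with a library left out (up to 0.211), while DESeq2 called it with Arap1.

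Markers of the proximal tubule, where Ace, Mme, Enpep and Agtr1a are known to be expressed, and of podocytes fell in KI kidneys. The summed level of 8 proximal tubule markers was 14350 to 16050 CPM in Cre(-) kidneys and 981.3 to 1240 CPM in KI kidneys, and 8 of 8 fell. It was 1451 to 3248 CPM in Hif1α KO, 1047 to 2750 CPM in Hif2α KO and 1759 to 2756 CPM in DKO kidneys. Of the 8, 4 were called higher in Hif1α KO, 5 in DKO and 0 in Hif2α KO kidneys against KI. Among all genes 5.44%, 12.7% and 1.39% were called in these comparisons. The median log2 fold changes of the 8 markers were 1.26, 1.13 and 0.75. Between Hif1α KO and Hif2α KO kidneys 0 of the 8 were called, so the single losses were not shown to differ. All 4 podocyte markers fell, from a sum of 537.4 to 617.6 CPM in Cre(-) to 105.7 to 162.2 CPM in KI kidneys. Enpep, also a gene of the proximal tubule, changed far less than these markers in KI against Cre(-) kidneys (-0.35 ± 0.09). The part of these shifts in the levels of Ace, Agtr1a, Mme and Enpep was not tested.

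Cells near the renin-producing arterioles have markers that moved in both directions. Of 5 mesangial and smooth muscle markers 2 rose (Acta2 and Tagln) and 1 fell (Itga8), and their sum was 177.5 to 232.1 CPM in Cre(-) and 242.6 to 334.7 CPM in KI kidneys. Of 4 endothelial markers 2 fell, with sums of 250.4 to 370.4 CPM and 219.1 to 226.7 CPM. The adrenal genes Cyp11b2 (no read in any library) and Cyp11b1 (at most 2 reads) were at or near 0, with sums over the 5 adrenal markers of 4.45 to 9.05 CPM. Cyp21a1 of that list was called higher in KI kidneys at 0.872 CPM on average. The mast cell list had 1 of 4 genes tested, Tpsb2, which was called higher at 1.10 CPM on average, and its summed level did not pass 4.35 CPM in any library.

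Of 4 macrophage markers 3 rose in KI kidneys, with sums of 117.1 to 138.6 CPM in Cre(-) and 1287 to 1344 CPM in KI kidneys, and Csf1r was not called. Most of the sum was Cd68, a lysosomal membrane protein gene, with 3.24 to 5.75 CPM in Cre(-) and 1060 to 1151 CPM in KI kidneys. Against KI, Cd68 then fell by 0.93 and 1.39 on the log2 scale in Hif1α KO and DKO kidneys, beside -0.85 and -1.38 for Agt, and was not called in Hif2α KO kidneys (-0.68 ± 0.21, adjusted p = 0.101), where Agt was called at -0.81. Adgre1, another macrophage marker, rose by 0.70 ± 0.18 and 0.76 ± 0.19 in Hif1α KO and DKO kidneys and was not called in Hif2α KO kidneys (0.78 ± 0.19, adjusted p = 0.0541). The part of macrophages in the level of Agt was not tested. Of 5 adipocyte markers 3 were called higher in KI kidneys, with overlap between the groups and most of the level in KI replicate 2.

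The genes most like each member across libraries were found by Pearson's r of log2 CPM, given as a description. Over the 13 libraries with Cre, which fall into 4 groups, Agt was most like Methig1 (r = 0.992), Cd68 (0.987) and Plekhm2 (0.987). Atp6ap2 was most like Lamp2 (0.956), a lysosomal membrane protein gene, Ddi2 (0.955) and Alas1 (0.951). Ace was most like Slc22a19 (0.964), Agtr1a like Them7 (0.973), Mme like Gm18310 (0.942), Enpep like Vcp (0.944) and Ren1 like 0610037L13Rik (0.868). Over all 17 libraries, where the gap between Cre(-) and the other groups sets most of the value, Agt was most like Man2b2 (0.997), a lysosomal mannosidase gene, Plekhm2 (0.996) and Pomk (0.996). Agtr1a was most like Slc17a3 (0.992) and Cltrn (0.991), both genes of the proximal tubule, and Them7 (0.99). Atp6ap2 was most like Riok3 (0.891), Ren1 like Pomt1 (0.98), Ace like Suox (0.992), Mme like Gm18310 (0.993) and Enpep like Sfxn1 (0.927).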

How the data were processed

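Kidney polyA RNA of 17 mice was sequenced as stranded libraries with single-end reads of 75 bases. The methods name Trim Galore (0.6.6) with cutadapt (2.5), STAR (2.7.9a) and RSEM. They name the human assembly hg38 for the alignment, while the submitters' processing notes also name GRCm38 and every row of the files is a mouse transcript, so GRCm38 was used for positions. The authors deposited expected counts per transcript, which are estimates that are not normalized, and the deposited TPM is scaled to transcript length and library total.

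Of 119353 transcripts 116770 (97.8%) were matched to GENCODE M21 by identifier and held 99.04% to 99.24% of the counts. They were summed to 35971 genes and rounded. Genes were tested by quasi-likelihood with edgeR (4.0.16, in R 4.3.3) in one fit of 17 libraries with a coefficient per group, TMM factors and filterByExpr with a minimum count of 10, which kept 16995 genes. Intervals at the 95% level use the residual and prior degrees of freedom of that fit. Scripts were tested on simulated data. Summaries used pandas 2.3.3 and plots used matplotlib 3.10.9 under Python 3.11.15.

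Other settings were a block for replicate number, a fit restricted to the groups compared, all genes unfiltered, edgeR with size factors from DESeq2 (1.42.0), the DESeq2 test itself, limma 3.58.1 on log2(TPM + 1) with and without the filter and on log2(TPM + 0.1), either pair of Cre(-) mice, and each library left out in turn. A pseudocount understates the change of low genes on the log2 scale.

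The members, the gene lists and the marker lists were chosen with earlier results of these data known. All members are named with their values. Other pathway genes are named where they passed the threshold in a comparison, largest change first, at most 8 a comparison provided that 1 of the groups averaged 1 TPM or more. Anpep, Ptgs2, Akr1b7 and Gja5, which were not called, and Scnn1a, Rgs5 and Gja4 in KI against Cre(-) fall outside this rule and were named after their values were seen. The values of 1 pathway gene are not reported here, though it is part of the counts. Nothing in the labels says that libraries came from separate cages or litters, and p-values measure the spread between these mice. No library was identical to another.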

Additional observations from a re-analysis of the deposited data

Results flagged for a closer look

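Mme in Cre(-) replicate 4, at 361.5 CPM, was the only value of a member that stood apart from its group by Dixon's test at the 95% level (ratio 0.838), with the other Cre(-) kidneys at 429.3 to 442.4 CPM. It was 1 of 18 gene and group pairs with 4 libraries, and chance flags about 1 in 20 groups. Without this library the log2 fold change of Mme between KI and Cre(-) kidneys was -2.97 (edgeR, adjusted p = 7.11e-07).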

How the results depend on the processing

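Of 560 gene values under the other settings 510 kept their direction and call, 22 reversed, 15 lost the threshold and 13 gained it, and of 1071 values with a library left out 1018 did (25 reversed, 15 lost, 13 gained). The changes that bear on a count or a direction are given here, others stand beside their results, and the cause was not tested. Depth limits Agtr1b and Agtr2, which had too few reads to compare.

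Members called in Hif1α KO against KI numbered 1 in a fit of only the groups compared and in all 3 limma fits on TPM (2 in the main fit of 17 libraries), and 1 to 3 with a library left out. In Hif2α KO against KI they numbered 0 with the replicate block, with only the groups compared, with limma on unfiltered log2(TPM + 1) and with a pseudocount of 0.1, and 0 to 1 with a library left out. In DKO against KI they ranged from 2 to 5 with a library left out. Pathway genes called in Hif1α KO against KI numbered 5 with DESeq2, 0 with no filter, the replicate block, only the groups compared, log2(TPM + 0.1) and log2(TPM + 1) with no filter, and 0 to 3 with a library left out. In Hif2α KO against KI they numbered 2 with DESeq2 and 0 to 1 with a library left out, and in DKO against KI 7 with DESeq2 and 0 to 8 with a library left out. Of all genes DESeq2 called 9.81%, 5.97% and 17.1% in Hif1α KO, Hif2α KO and DKO against KI. With a library left out edgeR called 1.61% to 6.89%, 0.0751% to 4.96% and 4.19% to 13.8%. Besides the main fit, the remaining settings named here called 1.31% to 3.71% in Hif1α KO and 0.0125% to 0.488% in Hif2α KO against KI.

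On the TPM scale, where the median log2 fold change of all genes against Cre(-) was 0.35 to 0.56 with the filter, Enpep reversed to 0.12 or 0.13 in KI and to 0.03 in Hif1α KO, and Atp6ap2 to 0.30 or 0.31 in Hif2α KO and to 0.33 or 0.34 in DKO kidneys. Mme between the single knockouts reversed to -0.05 or -0.06 and the Ren1 interaction to 0.11. Atp6ap2 reversed against Cre(-) replicates 1 and 2 to -0.04 in KI and -0.14 in Hif1α KO, where DESeq2 and its size factors gave -0.01. It gained a call against Cre(-) in Hif2α KO and DKO kidneys with DESeq2, with Cre(-) replicates 1 and 2 alone (-0.35 and -0.36) and without Cre(-) replicate 3 or 4 (adjusted p from 0.0205 to 0.0423), and in KI, Hif1α KO, Hif2α KO and DKO kidneys it was called higher in all 3 limma fits on TPM. Ace in Hif1α KO against KI was called without Hif1α KO replicate 2, Hif2α KO replicate 1 or 2 or DKO replicate 1 (adjusted p from 0.0216 to 0.0478). With a library left out, differences between Hif1α KO and Hif2α KO ranged from -0.16 to 0.04 for Agt, from -0.26 to 0.25 for Ren1, from -0.05 to 0.39 for Ace and from -0.11 to 0.23 for Mme. The interaction ranged from -0.26 to 0.13 for Ace, from -0.36 to 0.28 for Mme and from -0.08 to 0.09 for Enpep, and Atp6ap2 in Hif1α KO against Cre(-) from -0.06 to 0.09. Of all called genes the TPM scale (log2(TPM + 1), filtered) put 69.8% higher in DKO against KI (main fit 51.3%) and 70.6% in Hif2α KO against KI (main 53.4%).

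Same-numbered libraries are different mice. Of 31 same-number pairs between groups 4 had a correlation of their deviations over 0.1 (median -0.033, against 0.0125 for different numbers), so the numbers were not taken as pairs. With the replicate block Agt in Hif2α KO against KI was -0.81 (adjusted p = 0.0784) and lost its call, Tsc22d3 between the single knockouts lost its call too, and the counts above moved. Members called stayed at 6 in KI against Cre(-), 2 in Hif1α KO and 3 in DKO against KI. Of all genes the replicate block called 58.1%, 2.82% and 10.1% in these comparisons.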
